A study of Mus musculus with 19 samples.

Results

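The apolipoproteins Apoa1, Apoa2, Apoa4, Apoa5, Apob, Apoc1, Apoc3, Apoe and Apom were followed in hepatocytes of young and old mice. These 9 genes were taken by symbol from the 24537 genes of the count table, and all 9 passed the filter on low counts that kept 12269 genes for testing. RNA sequencing of poly(A) RNA gave 19 libraries of hepatocytes, the parenchymal liver cells, released by stepwise perfusion. All came from male wild-type C57BL/6J mice, a single inbred strain, and no treatment is named in the labels. The young group was labelled 5 months old (n = 10) and the old group 24 months old (n = 9). The mice were culled on 2 days, with 5 young and 5 old mice on day 1 and 5 young and 4 old mice on day 2. Each library number is taken here as 1 mouse. The labels do not state this outright, so the p-values measure the spread between libraries.

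Apolipoproteins are the protein parts of lipoproteins, the particles that carry cholesterol and triglyceride in blood, and the liver secretes most of them. Apob is the scaffold of very-low-density lipoprotein (VLDL) and its product low-density lipoprotein, whereas Apoa1 and Apoa2 are the main proteins of high-density lipoprotein (HDL). The others exchange between particles, where Apoc3, Apoc1, Apoa4 and Apoa5 modulate lipolysis and lipid transfer and Apoe is the ligand through which hepatic receptors take remnants up.

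Counts over genes totalled 17381439 to 20287629 per library. Summed markers of hepatocytes ran from 111447 to 162870 CPM (counts scaled by TMM-adjusted library size) in young mice and from 123890 to 202603 CPM in old mice. Alb, the albumin transcript, made up most of this sum, with means of 94657 of 141938 CPM (young) and 128990 of 170971 CPM (old). Of 14 such markers 1 was higher and 7 were lower in old mice. Markers of other liver cells were low in comparison, but 14 of 15 macrophage, 12 of 15 endothelial and 13 of 14 stellate markers tested were higher in old mice (edgeR quasi-likelihood test, adjusted p under 0.05). Summed macrophage markers ran from 115 to 571 CPM in young mice and from 76.3 to 3704 CPM in old mice, with old mouse 1187 highest, and no listed marker was at 0 in every library. In bulk RNA, fewer cells of a type and less RNA per cell cannot be told apart. From day 1 the young mice 1184, 1186 and 1188 stood apart. They held 5113, 8281 and 3188 CPM of Saa1, an acute-phase apolipoprotein, against 15.8 to 33.9 CPM in the other young mice and 32.3 to 596 CPM in old mice. The log2 fold changes of all members are therefore also given without these 3 mice.

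Of the 9 apolipoproteins, Apoa1 was higher in old mice, none was lower and 8 did not pass the test. Over all 12269 genes 30.9% were called, with 16.3% higher and 14.5% lower (edgeR, adjusted p under 0.05). The split was 2005 higher and 1780 lower, or 2098 and 1169 with library totals in place of TMM scaling. The median log2 fold change, old against young, was -0.01 over the members and -0.003 over all genes tested. At an unadjusted p under 0.05 there were 2 members, Apoa1 and Apob. DESeq2 called 2 members against 33.7% of all genes, adding Apob as lower, while limma-voom called 1 against 32.6%. For 6 of the 9 members the 95% interval lay within 1.5-fold in either direction, an outcome that was not counted over all genes. In no member were all old mice above, or all old mice below, all young mice, an outcome found in 0.994% and 0.725% of tested genes. Without young mice 1184, 1186 and 1188, Apoa1 was again called (0.34) and none of the other 8, against 27.2% of genes. Apoa2 was then at -0.24 (adjusted p = 0.193, edgeR) in place of -0.01, Apoc1 at -0.22 (adjusted p = 0.145) in place of -0.07 and Apoc3 at -0.13 in place of -0.03. Apob was at -0.32, Apoe at -0.14, Apoa5 at -0.05, Apoa4 at 0.11 and Apom at 0.009, so the sign turned for Apoe, Apoa5, Apoa4 and Apom.

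**Figure D1:**
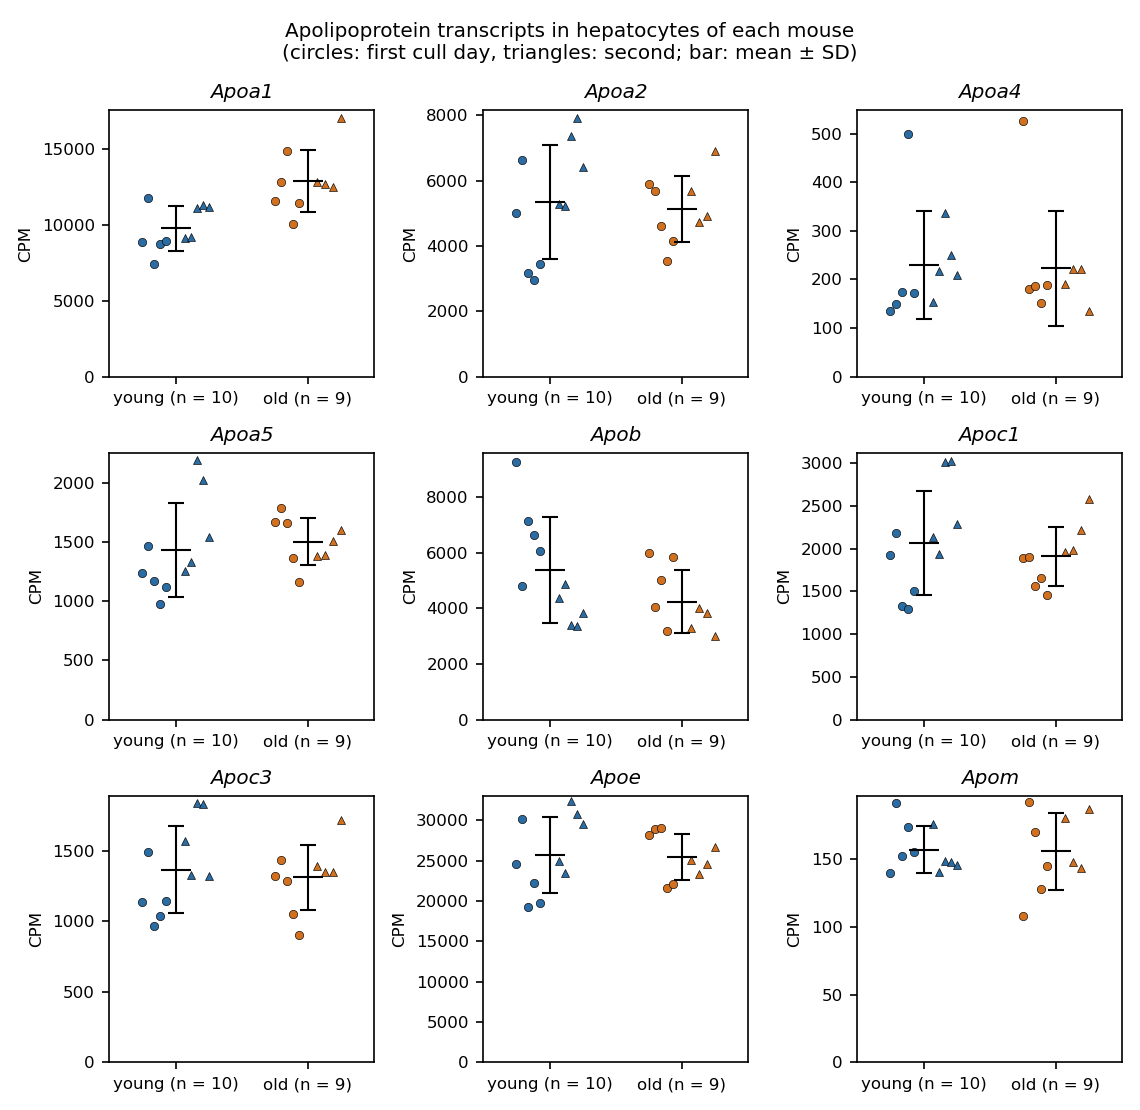
CPM of each apolipoprotein in each mouse, by age, with the mean and SD as a bar; circles are the first cull day and triangles the second. Old mice sit higher for Apoa1 (10038 to 17060 CPM against 7411 to 11797 CPM), and the ages overlap in all 9 panels.

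**Figure D2:**
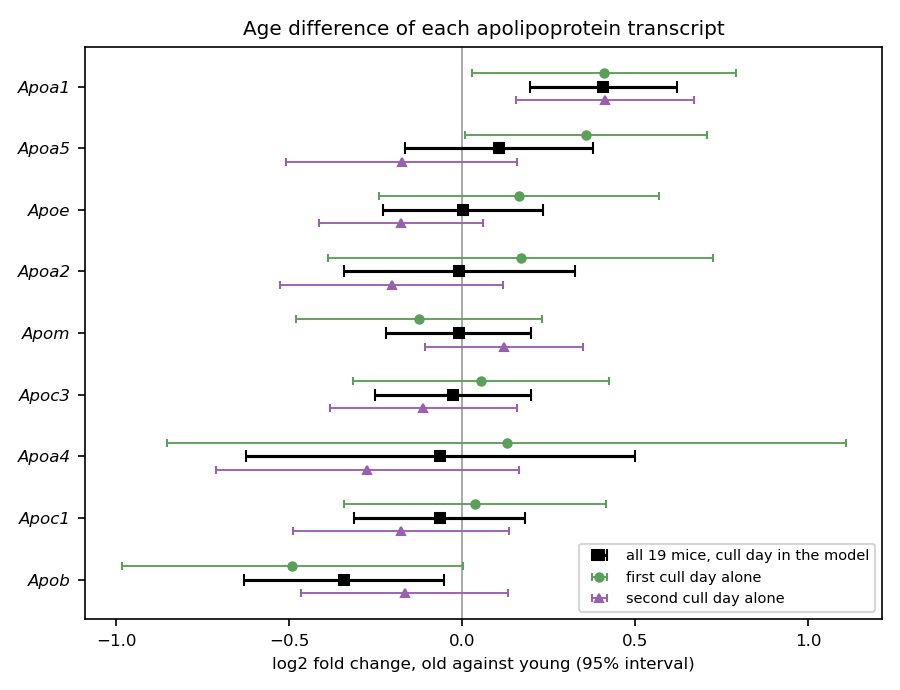
Log2 fold change of each member, old against young, with its 95% interval, over all 19 mice and on each cull day alone. Apoa1 lies near 0.41 in all 3 fits, and the intervals of the other members over all mice include 0 except that of Apob.

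Levels were compared between genes as CPM per kilobase of the transcript length in the table. Apoe stood highest, at 20283 ± 3726 CPM per kb (young, SD, n = 10) against 20116 ± 2249 (old, SD, n = 9), and ranked 2 among all 24537 genes. It was above the next member in every mouse, although their ranges overlapped. Apoa1 ranked 3 and Apoa2 ranked 5. In young mice Apoa2 (10379 ± 3402 CPM per kb) and Apoa1 (9938 ± 1485) were neighbours whose ranges overlapped, with Apoa2 above Apoa1 in 7 of 10 mice. In old mice Apoa1 (13092 ± 2079 CPM per kb) was above Apoa2 (9957 ± 1979) in 9 of 9. Apoc1 came next at 3763 ± 1117 CPM per kb in young mice and 3484 ± 628 in old mice, and its range did not overlap that of the third gene in either age. Apoc3 followed at 2189 ± 498 and 2103 ± 371 CPM per kb, below Apoc1 in every mouse although the ranges overlapped. Apoa5, Apob, Apom and Apoa4 formed the lower end, from 618 ± 170 down to 138 ± 67.2 CPM per kb in young mice and from 650 ± 84.4 to 134 ± 70.7 in old mice. Neighbours among these 4 had overlapping ranges, except Apoa5 and Apob in old mice. By reads alone the order differs, since Apob has a transcript of 13878 bases and Apoa2 one of 515 bases. The 9 genes together took 5.06% ± 0.727 of gene counts (young, SD, n = 10) against 5.35% ± 0.486 (old, SD, n = 9), with overlapping ranges.

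Apoa1, the structural protein of HDL and the activator of the cholesterol-esterifying enzyme Lcat, was the only member called. Its level was 7411, 9146 and 11797 CPM at the lowest, median and highest young mouse and 10038, 12671 and 17060 CPM at the lowest, median and highest old mouse. All 9 old mice were above the young median and 6 of 9 were above every young mouse, while old mice 1181, 1187 and 1189 were below the highest young mouse, 1182. The difference was 0.41 on the log2 scale (SE 0.102), a 1.33-fold higher level with a 95% interval of 1.15 to 1.54, and its adjusted p was 0.00666 (edgeR quasi-likelihood test). The exact permutation test within cull days gave p = 0.00063, or 0.00654 adjusted over all genes. On the first cull day the means were 9146 ± 1608 CPM (young, SD, n = 5) against 12139 ± 1798 CPM (old, SD, n = 5). On the second they were 10372 ± 1122 CPM (SD, n = 5) and 13752 ± 2209 CPM (SD, n = 4), and there every old mouse was above every young mouse. Such separation is easier to reach with these fewer mice than over all libraries, and its share over all genes on that day was not counted. The log2 difference was 0.41 on each day, with an adjusted p of 0.167 in edgeR on the first day alone, where 3.67% of genes were called, and 0.0295 on the second, where 19.3% were. With the score of other liver cells in the model the difference was 0.55, and without young mice 1184, 1186 and 1188 it was 0.34, both called.

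Albumin, the most abundant secreted hepatocyte protein, was measured beside it. Its transcript Alb ran from 61168 to 116311 CPM in young mice and from 93212 to 157473 CPM in old mice. The ratio of Apoa1 to Alb counts within a library was 0.107 ± 0.0215 (young, SD, n = 10) against 0.101 ± 0.0151 (old, SD, n = 9). The medians ran the other way, at 0.101 in young and 0.107 in old mice. No old mouse had a ratio above all young mice, and the ranges overlapped. The highest ratio, 0.144, was that of young mouse 1188. Young mice 1184, 1186 and 1188 had the least Alb, at 62616, 61168 and 62194 CPM. The other young mice had 103017 CPM and above. The ratio was not compared between the ages without mice 1184, 1186 and 1188, and its age difference was not tested.

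Apoa2, the second protein of HDL, did not pass the test. It ran from 2973 to 7912 CPM in young mice (median 5252) and from 3549 to 6906 CPM in old mice (median 4933). Young mice 1186, 1184 and 1188 were the lowest of the 19, at 2973, 3163 and 3447 CPM. The log2 fold change was -0.01 with a 95% interval from -0.34 to 0.32, and -0.24 without those 3 mice. Apom, the HDL carrier of sphingosine-1-phosphate, was expressed at 157 ± 17.2 CPM (young, SD, n = 10) against 156 ± 28.4 CPM (old, SD, n = 9). Its lowest mouse, 1181 at 108 CPM, and its highest, 1183 at 192 CPM, were both old. The log2 fold change of Apom was -0.01, with a 95% interval from -0.22 to 0.20.

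The promoters of Apoa1, its cluster neighbour Apoa5, its HDL partner Apoa2 and Apob are shown because Apoa1 was called with age and the other 3 were not. Each is the 250 bases before the start site on the coding strand, from RefSeq on GRCm38.p6, at chr9:46228380-46228629 (+), chr9:46268358-46268607 (+), chr1:171224804-171225053 (+) and chr12:7977427-7977676 (+). Capitals mark matches to the motifs searched.
Apoa1: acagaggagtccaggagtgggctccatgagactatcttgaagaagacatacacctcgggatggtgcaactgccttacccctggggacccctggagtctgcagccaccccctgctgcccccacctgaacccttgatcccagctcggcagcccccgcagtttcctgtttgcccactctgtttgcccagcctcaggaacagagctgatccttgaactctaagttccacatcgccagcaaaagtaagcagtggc
Apoa5: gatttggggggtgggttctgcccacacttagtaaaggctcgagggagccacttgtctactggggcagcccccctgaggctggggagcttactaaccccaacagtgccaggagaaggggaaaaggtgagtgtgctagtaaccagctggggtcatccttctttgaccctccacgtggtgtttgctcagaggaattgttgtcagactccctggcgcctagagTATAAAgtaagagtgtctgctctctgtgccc
Apoa2: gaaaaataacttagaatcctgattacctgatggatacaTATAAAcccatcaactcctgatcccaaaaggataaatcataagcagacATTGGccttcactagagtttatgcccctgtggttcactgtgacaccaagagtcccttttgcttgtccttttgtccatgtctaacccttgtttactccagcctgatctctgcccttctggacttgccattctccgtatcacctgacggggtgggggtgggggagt
Apob: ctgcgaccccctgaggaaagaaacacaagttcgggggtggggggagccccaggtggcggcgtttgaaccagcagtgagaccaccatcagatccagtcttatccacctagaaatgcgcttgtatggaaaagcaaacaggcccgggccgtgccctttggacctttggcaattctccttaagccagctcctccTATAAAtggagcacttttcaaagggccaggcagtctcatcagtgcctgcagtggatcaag
The motifs searched on both strands were TATAAA (the TATA box), CCAAT, CAAAGTCCA (a sequence bound by Hnf4a) and AGGTCA (the half-site of nuclear receptors). RefSeq promoters were found for 7 of the 9 members. TATAAA occurs in 12.4% of the 32851 promoters of the table, CCAAT in 33.8%, CAAAGTCCA in 0.384% and AGGTCA in 14%. Apoa5 held TATAAA from -31 to -26, Apob from -60 to -55 and Apoa2 from -212 to -207. Apoa2 also held CCAAT on the opposite strand from -164 to -160. No motif was matched in the windows of Apoa1, Apoa4, Apoe and Apom. These are letter matches only.

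Apob, the scaffold protein of which each VLDL particle carries a single copy, ran in the opposite direction to Apoa1 without passing the test. The lowest, median and highest young mice had 3375, 4834 and 9258 CPM, and the lowest, median and highest old mice had 3006, 4019 and 5981 CPM. The 4 highest libraries were young mice 1180, 1184, 1186 and 1188, all of the first cull day, and 3 old mice (1242, 1187 and 1236) were below every young mouse. The log2 fold change was -0.34 (SE 0.138), or 0.789-fold with a 95% interval of 0.646 to 0.965, and the adjusted p was 0.0671 in edgeR. DESeq2 gave -0.35 with an adjusted p of 0.0327, and leaving out young mouse 1182 gave -0.38 with an adjusted p of 0.0443 in edgeR. Leaving out the highest library, 1180, gave -0.26 with an adjusted p of 0.134. By cull day the means were 6774 ± 1642 CPM (young, SD, n = 5) and 4803 ± 1201 CPM (old, SD, n = 5) on the first day. They were 3966 ± 646 CPM (young, SD, n = 5) and 3531 ± 470 CPM (old, SD, n = 4) on the second. The first day was thus higher in both ages.

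Libraries also differed in how long and short transcripts were represented. Members varied with this to different degrees, in an order that was not that of their lengths. A length index was defined after the data were seen, as the median log2 deviation of 485 tested genes of 8 kb and over minus that of 941 genes under 1 kb, members left out. It ran from -0.69 (young mouse 1243) to 0.73 (young mouse 1180) and averaged 0.04 ± 0.45 (young, SD, n = 10) against -0.05 ± 0.30 (old, SD, n = 9). The index also differed by cull day, running from -0.15 to 0.73 on the first and from -0.69 to 0.11 on the second. Relations over all 19 libraries therefore also take in the difference between the days. Over the 19 libraries log2 CPM of Apob, the longest member, rose with the index. Pearson's r was 0.911 and Spearman's rho 0.896, each with a permutation p of 1e-05, the smallest the resamples can give, and 9e-05 adjusted over the 9 members. The r was 0.896 without the 2 libraries farthest from the median index, 0.964 within young, 0.878 within old, 0.891 within day 1 and 0.895 within day 2. Apoc3, Apoc1 and Apoa2, which are under 1 kb, and Apoa5 (2315 bases) fell with the index, with r of -0.809, -0.803, -0.732 and -0.724 and rho of -0.823, -0.853, -0.795 and -0.716. Their adjusted permutation p-values were 0.00021, 0.00021, 0.000846 and 0.000846 for r and 9e-05, 9e-05, 0.000405 and 0.00138 for rho. Without the 2 farthest libraries their r was -0.804, -0.880, -0.791 and -0.678. Within day 1 it was -0.583, -0.436, -0.410 and -0.601, and within day 2 it was -0.747, -0.795, -0.870 and -0.796. Within old mice the r of Apoa5 was -0.193. Apoe (1267 bases) and Apoa1 (982 bases) had smaller coefficients (r of -0.614 and -0.558, rho of -0.709 and -0.525). Their adjusted permutation p was 0.00804 and 0.0172 for r and 0.00138 and 0.0298 for rho, and r without the 2 farthest libraries was -0.623 and -0.570. Within day 1 their r was -0.483 and -0.565, and within day 2 it was -0.758 and -0.476. For Apoe the relation was found within young mice (r = -0.808) and hardly within old mice (r = -0.09). For Apom (707 bases) and Apoa4 (1661 bases) r was -0.271 and -0.004 and rho -0.281 and -0.128, with adjusted permutation p of 0.292 and 0.988 for r and 0.274 and 0.601 for rho. The index and the members share each library and its scaling.

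**Figure D3:**
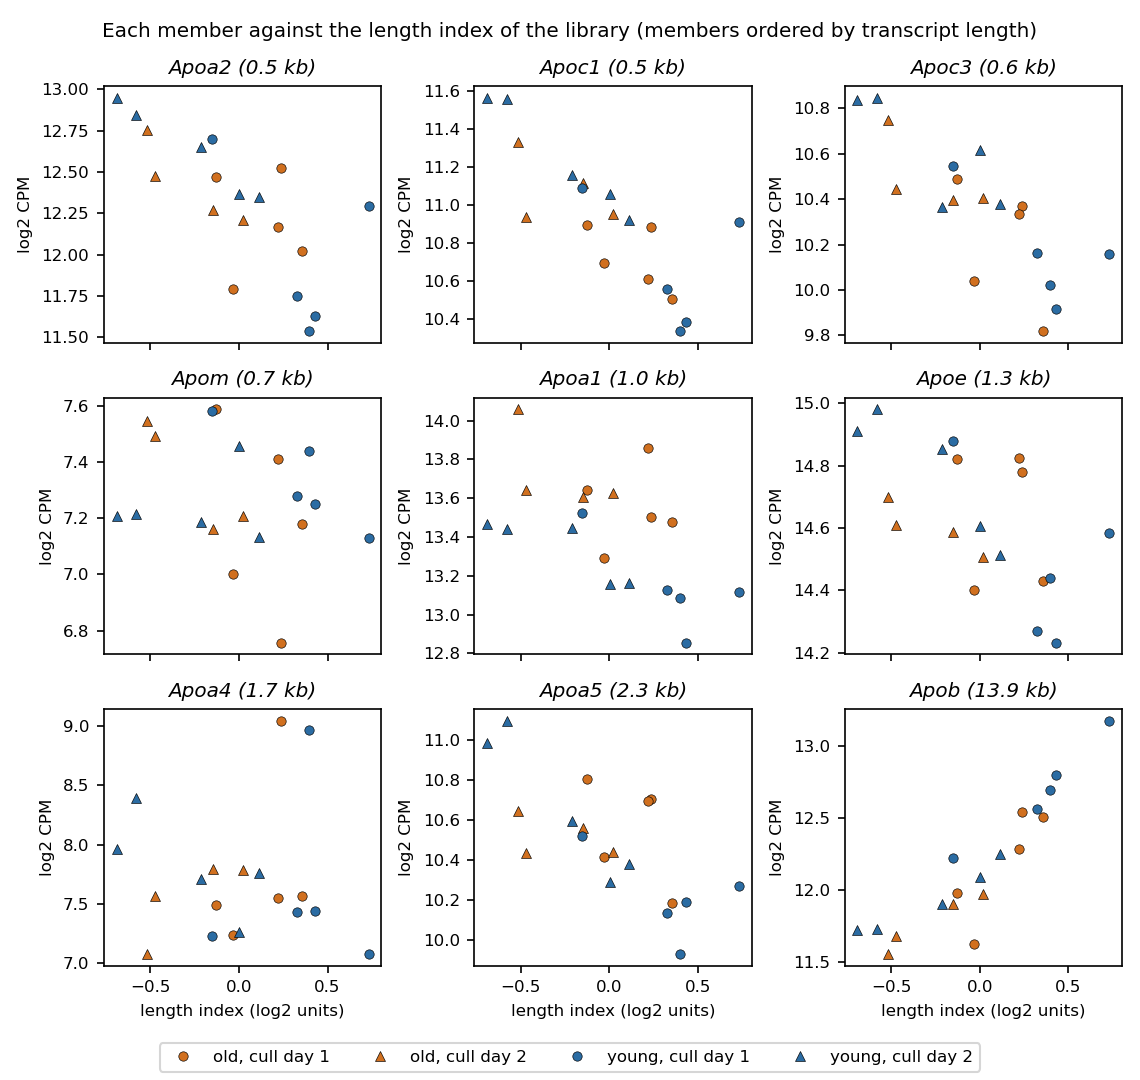
Log2 CPM of each member against the length index of its library (log2 units), with members ordered by transcript length; colours are ages, circles the first cull day and triangles the second. Apob (13.9 kb) climbs along the index from young mouse 1243 to young mouse 1180, whereas Apoa2, Apoc1 and Apoc3 descend.

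With the index as a covariate the age difference of Apob was -0.23 on the log2 scale (adjusted p = 0.0459, edgeR), against 30.7% of all genes called in that fit, and that of Apoa1 was 0.37. With the score of other liver cells added as well, the difference of Apob was -0.10 and its adjusted p was 0.562. Among tested genes of 8 kb and over the median log2 fold change was -0.14, with 23.5% called lower and 11.7% higher. The log2 difference of Apob over all mice without these covariates, -0.34, lay further below 0 than this median of -0.14. Its 95% interval, from -0.63 to -0.05, included that median. Whether Apob differed from its length class was not tested.

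Apoc3, which slows the hydrolysis and uptake of triglyceride-rich particles, was at 1368 ± 311 CPM (young, SD, n = 10) against 1314 ± 232 CPM (old, SD, n = 9). Young values ran from 965 to 1843 CPM (median 1326) and old values from 903 to 1722 CPM (median 1349), so the groups overlapped over nearly their whole range. The log2 fold change was -0.03, with a 95% interval from -0.25 to 0.20. Apoa5, which promotes that hydrolysis, ran from 974 to 2189 CPM in young mice (median 1293) and from 1163 to 1788 CPM in old mice (median 1511). The SD was 394 CPM in young and 195 CPM in old mice, a difference that was not tested. Its log2 fold change was 0.11, with a 95% interval from -0.17 to 0.38.

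Apoc1, an inhibitor of lipid transfer and of receptor uptake, ran from 1294 to 3032 CPM in young mice (median 2037) and from 1453 to 2582 CPM in old mice (median 1907). Its log2 fold change was -0.07, with a 95% interval from -0.31 to 0.18, and -0.22 without young mice 1184, 1186 and 1188. Apoa4, an exchangeable apolipoprotein that the liver induces when it is loaded with fat, varied most. Old mouse 1181 had 527 CPM and young mouse 1186 had 499 CPM, whereas the medians were 189 CPM in old and 192 CPM in young mice. Its log2 fold change was -0.06 with a 95% interval from -0.63 to 0.50, the widest of the members. It was -0.32 without old mouse 1181 and 0.18 without young mouse 1186, with adjusted p of 0.291 and 0.601 in edgeR.

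Apoe, a ligand for hepatic uptake of remnants, was the most abundant member in every library. It ran from 19256 to 32328 CPM in young mice (median 24768) and from 21635 to 28988 CPM in old mice (median 25022). Young mice 1184 and 1188 were lowest, at 19256 and 19756 CPM, and young mouse 1239 was highest, so the old mice fell within the young range. The log2 fold change was 0.002 with a 95% interval from -0.23 to 0.23. Without young mice 1184, 1186 and 1188 it was -0.14.

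The age difference was also compared between cull days. No member was called for an age by cull day interaction in edgeR, where 0% of genes were called, or in DESeq2, where 0.0819% were. At an unadjusted p under 0.05 there was 1 member in edgeR, Apoa5 (p = 0.0322, adjusted p = 0.733), against 6.51% of genes. Apoa5 was 1194 ± 182 CPM in young and 1530 ± 257 CPM in old mice on the first day (SD, n = 5 each). On the second day it was 1669 ± 418 CPM (young, SD, n = 5) against 1472 ± 104 CPM (old, SD, n = 4). limma-voom called 1 member, Apoe, with an interaction of -0.60 and an adjusted p of 0.0494, against 2.84% of genes. Apoe was 23181 ± 4415 CPM in young and 25964 ± 3764 CPM in old mice on the first day (SD, n = 5 each), and 28216 ± 3848 CPM (young, SD, n = 5) against 24889 ± 1380 CPM (old, SD, n = 4) on the second. The interaction of Apoa1 was -0.002 with an SE of 0.208 in edgeR.

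Ratios of counts within a library do not depend on scaling between libraries, and 9 of them were computed after the data were seen. Apoa1 to Apoc3, neighbours on opposite strands, was the 1 ratio in which the ages did not overlap. It ran from 5.82 to 8.45 in young mice and from 8.77 to 12.6 in old mice, with means of 7.29 ± 0.983 (SD, n = 10) and 9.89 ± 1.31 (SD, n = 9). Apoa1 had such a ratio with 7.2% of the 12267 other tested genes, and 0.432% of other tested genes had one with Apoc3. Apoa1 to Apoe was 0.383 ± 0.0291 (young, SD, n = 10) against 0.506 ± 0.0657 (old, SD, n = 9), with 7 of 9 old mice above every young mouse. Apoa1 to Apoa2 was 1.96 ± 0.493 and 2.55 ± 0.374, and Apoa1 to Apob was 2.08 ± 0.894 and 3.25 ± 1.11, in young and old mice. Both overlapped between the ages. Apoe to Apoc1, neighbours on the same strand, was 12.9 ± 2.00 in young mice and 13.6 ± 2.57 in old mice. For Apoc2 to Apoc4, also neighbours on the same strand but not members, it was 0.286 ± 0.0342 (young, SD, n = 10) against 0.372 ± 0.0539 (old, SD, n = 9). There 6 of 9 old mice were above every young mouse.

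**Figure D4:**
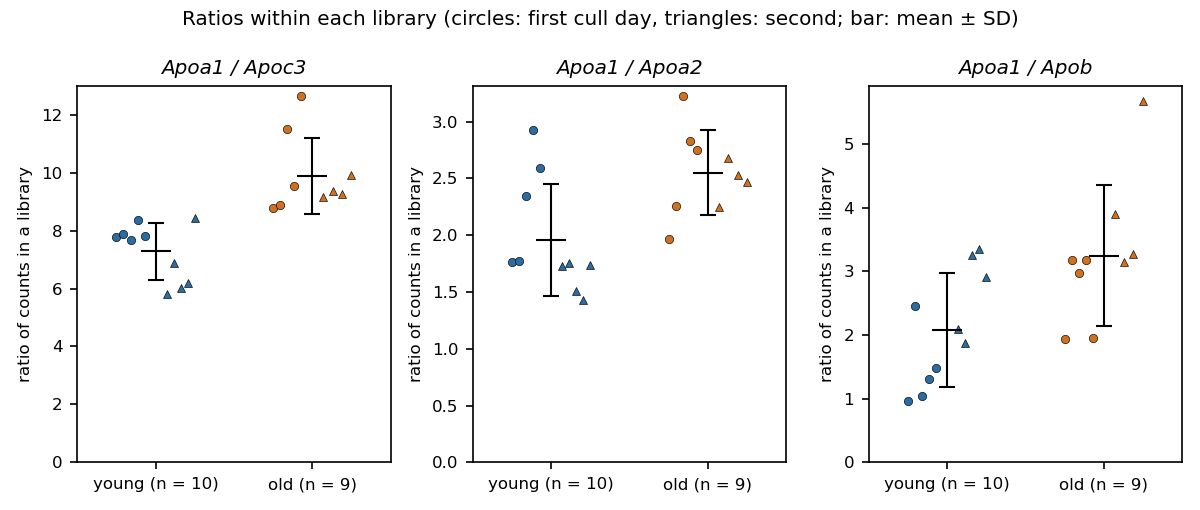
Ratio of Apoa1 counts to Apoc3, Apoa2 and Apob counts in each library, by age, with the mean and SD as a bar; circles are the first cull day and triangles the second. Only in the panel of Apoa1 to Apoc3 do all 9 old mice (8.77 and above) lie above all 10 young mice (8.45 and below).

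Among mice of the same age and cull day, 6 members varied together. Correlations were taken over residuals of log2 CPM from the age by cull day means of 19 libraries, for all 36 pairs. All 15 pairs among Apoa1, Apoa2, Apoa5, Apoc1, Apoc3 and Apoe, a grouping made after the values were seen, were positive. Their r was 0.632 to 0.890 and their rho 0.661 to 0.847, with adjusted permutation p of 0.000504 to 0.0181 for r and 0.00072 to 0.015 for rho. Their r was 0.457 to 0.885 without the 2 libraries farthest from the median, and 0.540 to 0.888 without young mice 1184, 1186 and 1188. The closest pair was Apoa2 and Apoc1 (r = 0.890, rho = 0.811, adjusted permutation p = 0.000504 and 0.00295). All 6 also fell with the length index over the 19 libraries (r of -0.558 to -0.809). The share of all gene pairs with such r was not counted, and whether the index underlies these pairs was not tested. Apob had an r of -0.435 to 0.210 and rho of -0.474 to 0.181 to the other 8 and adjusted permutation p of 0.239 and above for r and 0.128 and above for rho, with r of -0.684 to 0.05 without the 2 farthest libraries. Pairs with Apoa4 or Apom did not pass either. Beyond the members, the 2 genes most like each by the same r over 19 libraries are given as a description. They were Apoh (0.880) and Pak1ip1 (0.866) for Apoa1, Atraid (0.958) and Cisd1 (0.956) for Apoa2, and Pemt (0.964) and Apoh (0.942) for Apoe. Apoc1 was nearest to 4930506C21Rik (0.946) and Pts (0.935), Apoc3 to Nme3 (0.924) and Gnmt (0.912), and Apoa5 to Mcee (0.942) and Hebp1 (0.941). Apob was nearest to Vps13b (0.945) and Ash1l (0.944), whose transcripts are 13307 and 11241 bases long. Apoa4 was nearest to Ppifos (0.867) and Serpina3m (0.845) and Apom to Tpst1 and Fbxl2 (0.808 each).

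The spread among mice of the same age and cull day placed Apoa4 highest, with a residual SD of 0.61 log2 CPM in young and 0.58 in old mice, at the percentiles 92.0 and 88.5 of all tested genes. Apoa1 lay near the middle in both ages (SD of 0.20 and 0.21, against a median over genes of 0.23 and 0.23). Apom had an SD of 0.15 in young mice (percentile 22.6) and 0.28 in old mice (percentile 61.3).

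Most members lie in 2 clusters. Apoa1 (chr9:46228630-46230469, +), Apoc3 (chr9:46233050-46235299, -), Apoa4 (chr9:46240844-46243458, +) and Apoa5 (chr9:46268608-46271919, +) are neighbours on mm10. Of the 10 genes listed there and tested, Apoa1 was higher and Sik3, a kinase gene beside Apoa1, was lower (log2 fold change -0.26, adjusted p = 0.0138, edgeR; -0.24 and not called with the other-cell score). The flanking genes Pcsk7 (-0.01), Pafah1b2 (-0.06), Zpr1 (-0.03), Bud13 (0.16) and Tagln (0.46) did not pass. Antisense or unclassified genes of GENCODE M21 overlap Apoa4 (Gm47528, Gm10680) and Apoa5 (Gm47544), and the strand setting of the counting is not given in the sources used here, so the counts of Apoa4 and Apoa5 may hold their reads. Apoc1 (chr7:19689480-19692659, -) and Apoe (chr7:19696244-19699188, -) lie with Apoc2 and Apoc4. Of the 11 genes tested there, Tomm40, which encodes a mitochondrial import pore and adjoins Apoe, was lower (-0.20, adjusted p = 0.0192, edgeR; -0.17 with the other-cell score and -0.20 without the 3 young mice, not called in either) and the other 10 did not pass. Among those, Apoc2, the activator of lipoprotein lipase, was at 0.26 and Apoc4 at -0.11. Relb (1.10), Bcam (0.48), Bcl3 (-0.46), Nectin2 (-0.12), Cblc (-0.06) and Clptm1 (-0.04) were the flanking genes. Among the alternatives Relb was called in 8 of 19, Apoc2 in 4 of 19 and Bcam in 3 of 18. Those for Relb included DESeq2 (adjusted p = 0.0339) and limma-voom (adjusted p = 0.00875), but its sign turned with the other-cell score (-0.07). Apoa2 lies at chr1:171225054-171226379 (+), Apob at chr12:7977677-8016839 (+) and Apom at chr17:35128997-35131752 (-).

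Around the members, 98 distinct genes of 6 lipoprotein lists were tested. Of these, 14 were higher and 12 lower in old mice, against 16.3% and 14.5% of all genes, shares to set beside each list below. With the score of other liver cells in the model 12 were called, against 12.6% of all genes, and on the first cull day alone 3 were, against 3.67%. Of 10 other apolipoproteins 3 were higher and none lower, in edgeR, in DESeq2 and in limma-voom, and none was lower at an unadjusted p under 0.05. These were Apoh, a phospholipid-binding plasma protein (0.27, adjusted p = 0.0403), and the apolipoprotein L genes Apol9a (0.59, adjusted p = 0.0195) and Apol9b (0.37, adjusted p = 0.0498). Apoh lost its call in 11 and Apol9b in 15 of 19 fits that left out 1 mouse, with log2 fold changes of 0.24 to 0.32 and 0.27 to 0.44 over those fits. Apoh was at 0.16 and not called without young mice 1184, 1186 and 1188, and Apol9a was at 0.17 and not called with the other-cell score.

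For VLDL assembly 2 of 20 genes were higher and 2 lower, with 4 lower in DESeq2 and 7 called in all without young mice 1184, 1186 and 1188. Tm6sf2, needed for lipid loading of VLDL, was at 24.9 ± 3.4 CPM (young, SD, n = 10) against 35.2 ± 4.25 CPM (old, SD, n = 9). Its log2 fold change was 0.52 (adjusted p = 0.000253, edgeR), and it was called in every alternative, with 0.34 on the second cull day alone. Soat2, which esterifies cholesterol, was at 0.54 (adjusted p = 0.0109), 0.28 without the 3 young mice named above and 0.83 with the other-cell score. On the first and the second cull day alone Soat2 was at 0.75 and 0.31, not called on either. A1cf, the partner of the editing enzyme Apobec1 on Apob mRNA, was lower (-0.61, adjusted p = 0.0298) but not called with the other-cell score (-0.36) or without mouse 1180, 1236, 1237 or 1242 (-0.57 to -0.47). Tmem41b, a lipid scramblase, was lower (-0.23, adjusted p = 0.0317), at -0.20 with the other-cell score and -0.19 without the 3 young mice, not called in either, and lost its call in 7 of 19 fits that left out 1 mouse (-0.26 to -0.19 over all of them). Mttp, which loads lipid onto Apob, was at -0.23 (adjusted p = 0.0659, and -0.33 and called without those 3 mice), and Apobec1 at 0.47 (adjusted p = 0.107) with its sign turned by the other-cell score (-0.18).

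Of 15 receptor and uptake genes 3 were higher and 1 lower. Lrpap1, the chaperone of Lrp1, was higher (0.37, adjusted p = 0.00438), but at 0.23 and not called on the second cull day alone. Stab1, a scavenger receptor of liver endothelium, was higher (0.58, adjusted p = 0.0154) but at 0.01 and not called with the other-cell score. Stab1 is itself a marker in that score, which in itself moves its difference towards 0. Mylip, a ubiquitin ligase, was higher (0.67, adjusted p = 0.0327) and turned to -0.05 with that score, and lost its call in 6 of 19 fits that left out 1 mouse (0.45 to 0.76 over all of them). The remnant receptor Lrp1 (-0.14) and the HDL receptor Scarb1 (-0.15) did not pass.

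Of 12 genes of HDL formation and remodelling 3 were higher and none lower in edgeR and in limma-voom, with 1 lower in DESeq2 and 1 lower at an unadjusted p under 0.05 in edgeR, Abca1. Npc2, a sterol carrier, ran from 59.5 to 77.4 CPM in young mice and from 80.7 to 185 CPM in old mice. Every old mouse was thus above every young mouse, an outcome found in 0.994% of tested genes. The log2 fold change of Npc2 was 0.65 (adjusted p = 0.000579, edgeR), or 0.36 with the other-cell score, and 0.73 and not called on the first cull day alone. Pltp, the phospholipid transfer protein, was higher (1.04, adjusted p = 0.0322), at 0.53 and not called without young mice 1184, 1186 and 1188, and not called without any 1 of mice 1181, 1184, 1185, 1186 and 1188 (0.83 to 0.96). Abcg1, a cholesterol exporter, was higher (1.34, adjusted p = 0.0109) but was at 0.81 without old mouse 1187 and turned to -0.04 with the other-cell score. Abca1, which lipidates Apoa1, was at -0.31 (adjusted p = 0.0589) and Lcat at 0.10.

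Of 10 genes of lipolysis 2 were higher and 1 lower. Lpl, lipoprotein lipase, was at 1.79 (adjusted p = 0.0087, edgeR) but at 0.97 without old mouse 1187, and it turned to -0.13 with the other-cell score. Its anchor Gpihbp1 was at 1.10 (adjusted p = 0.00215), and at 0.47 and not called with that score. Creb3l3, a hepatocyte transcription factor of triglyceride metabolism, was lower (-0.26, adjusted p = 0.0189), at -0.16 and not called with that score, and -0.07 on the first cull day alone against -0.47 on the second. Lipc, hepatic lipase, was at 0.05.

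Of 33 regulators of apolipoprotein and lipid genes 1 was higher and 9 lower, against 16.3% and 14.5% of all genes. On the first cull day alone none was called, against 3.67% of all genes. On the second 1 was higher and 4 lower, against 19.3% called. Without young mice 1184, 1186 and 1188, 1 was higher and 6 lower, against 27.2% called. Zbtb20 (-1.04, adjusted p = 0.00589), Nr5a2 (-0.47, adjusted p = 0.0138), Foxo1 (-0.31, adjusted p = 0.0176) and Nr1h3 (-0.22, adjusted p = 0.0187) had the smallest p-values among the 9 lower ones over all mice in edgeR. Hnf4a, the nuclear receptor of hepatocyte identity, was lower (-0.30, adjusted p = 0.0268), and so was Ppara, the fatty acid receptor (-0.46, adjusted p = 0.0348). With the other-cell score Hnf4a was at -0.17 and Ppara at -0.13, and neither they nor Zbtb20, Nr5a2 and Foxo1 were called. Hnf4a also lost its call without mouse 1188 or 1240 (-0.28 each) and Ppara in 10 of 19 fits that left out 1 mouse (-0.46 to -0.39 in those). With library totals in place of TMM, Foxo1 (-0.27), Nr1h3 (-0.17) and Ppara (-0.43) were not called. Without young mice 1184, 1186 and 1188, Hnf4a (-0.29), Foxo1 (-0.31) and Nr1h3 (-0.18) were not called. The higher one, Usf1 (0.27), was named after its value was seen and was not called in limma-voom. Among 22 acute-phase genes none was called in edgeR, with 2 at an unadjusted p under 0.05, while DESeq2 called 1 lower and limma-voom 1 higher. Without young mice 1184, 1186 and 1188 edgeR called 18 of the 22 higher and none lower (none lower at an unadjusted p under 0.05), against 27.2% of all genes called. These included Saa1 (3.07, adjusted p = 0.00283), Saa2 (2.74, adjusted p = 0.00813) and Itih4 (1.03, adjusted p = 0.000801). The 3 mice were set apart by their high Saa1, so leaving them out in itself moves acute-phase genes towards higher in old mice. The p-values of that fit are therefore no independent test of these genes. On the second cull day alone 19 of 22 were higher, against 19.3% of all genes, and on the first none was called, with 5 lower and none higher at an unadjusted p under 0.05. With the acute-phase score in the model Apoa1 was at 0.43 (adjusted p = 0.00158, edgeR), against 35.5% of all genes called.

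**Figure D5:**
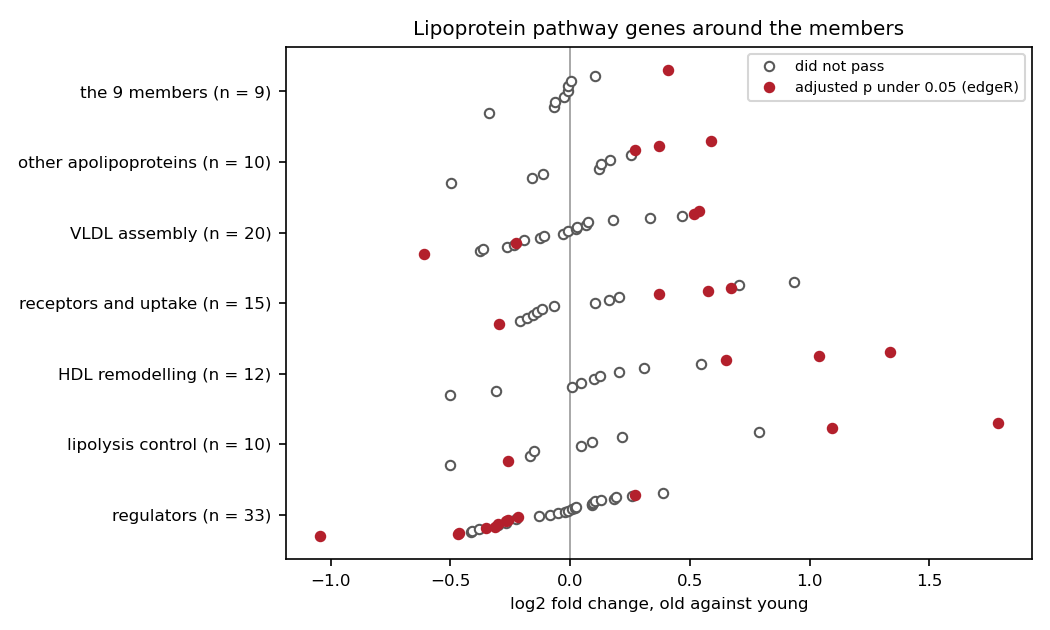
Log2 fold change, old against young, of the 9 members and of the tested genes of the 6 lists, 1 point a gene, filled where the adjusted p was under 0.05 in edgeR. Apoa1 is the filled point of the members. The 33 regulators hold 9 filled points below 0 and 1 above, against 14.5% of all genes called lower and 16.3% higher.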

How the data were processed

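The authors deposited 1 table of estimated counts per gene, in steps of 0.5. Per the file headers, analyzeRepeats.pl of HOMER counted reads over the exons of mm10 genes, with transcripts condensed to genes and no normalization. The submitters' processing notes also name STAR. Versions and the strand setting are not given in the sources used here. Between 78.3% and 86.5% of each column's stated total lay in genes.

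The estimated counts were rounded to whole counts, with ties going to the even one. Age was tested in all 19 libraries with edgeR 4.0.16 (quasi-likelihood test, TMM, cull day as a term, filterByExpr with a minimum count of 10) in R 4.3.3. P-values were adjusted by Benjamini-Hochberg over 12269 genes, with a threshold of 0.05. The script was tested on simulated data. SE is the absolute log2 fold change over the square root of F. Log2 CPM used a prior count of 2. The exact two-sided permutation test relabelled mice within cull days in 31752 ways. Permutation p-values of correlations came from 100000 resamples, with residuals of pairs relabelled within age and cull day. Alternatives were other scaling, filters, DESeq2 1.42.0, limma 3.58.1 (voom), covariates, cull days alone and leaving out mice. Scores of cell types are the mean log2 CPM of listed markers, and the other-cell score covers macrophage, endothelial, stellate, T and NK and B cell markers. Stab1, Lyz2 and Cd4 are among these markers, so the fits with that score adjust each of them partly for itself.

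The members and lists were chosen with earlier results of these data known. The length index, its 2 covariate fits, the ratios and the length classes were chosen after seeing the data. Genes named are the members, up to 4 called genes of each pathway list with the smallest p and a mean of at least 1 CPM, 14 fixed pathway genes, genes at the clusters, Saa1, Saa2, the 2 top genes of the acute-phase and other-cell lists and the 2 genes most like each member. Some genes that this rule names are not reported here, though the list counts include them.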

Additional observations from a re-analysis of the deposited data

Results flagged for a closer look

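Among 18 groups (9 members in each age), 1 had a mouse far from the others. Apoa4 in old mouse 1181 was at 527 CPM, and its gap to the next old mouse was 0.779 of the whole range of the 9 old mice, above Dixon's critical value of 0.493. Chance flags about 1 in 20 groups. Young mouse 1186, at 499 CPM, did not pass the same rule in its own group.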

How the results depend on the processing

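No paired analysis was possible because library numbers are not shared between the ages. Apoa1 kept its direction and its call under every alternative except the first cull day alone (0.41, adjusted p = 0.167), from 0.34 to 0.55 and from 0.36 to 0.46 with each mouse left out. The number of members called, 1, was 2 in DESeq2 and with the length index, each adding Apob as 1 lower, and 0 on the first cull day alone, where 0 were higher. With each mouse left out it was 1 to 2, with 0 to 1 lower and 1 higher. For age by cull day limma-voom called 1 member in place of 0, and every fit that left out a mouse gave 0. Genes called, 3785, were 1547 with the other-cell score, 2335 with the macrophage score, 1598 with the length index and other-cell score, 450 on the first and 2389 on the second cull day alone, and 3014 to 3949 with each mouse left out. Those higher, 2005, were 794, 1197, 741 and 231 in the first 4 of these, and 1523 to 2082 with each mouse left out. Those lower, 1780, were 753, 1138, 857, 219 and 884 in these 5, 1169 with library totals, and 1491 to 1867 with each mouse left out. Pathway genes called, 26, were 12, 17, 11 and 3 in the first 4, and 21 to 28 with each mouse left out. The causes were not tested, though single cull days hold fewer mice.

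Log2 fold changes, old against young, that turned their sign follow by setting. With library totals, these were Apoa2 0.033, Apoc3 0.020, Apom 0.033, Zpr1 0.013 and Pcsk7 0.028. With the totals of the column names, these were Apoa2 0.0064, Apom 0.0040 and Pcsk7 0.0024. With the filter at a mean of 1 CPM, these were Apoa2 0.0055, Apom 0.0052 and Pcsk7 0.0029. In limma-voom, these were Apoa2 0.0017, Apom 0.0089, Saa1 0.34 and Cd4 -0.56. With the other-cell score, these were Apoa2 0.32, Apoc1 0.10, Apoc3 0.14, Apom 0.060, Mylip -0.053, Abcg1 -0.039, Lpl -0.13, Apobec1 -0.18, Zpr1 0.091, Pcsk7 0.079, Apoc4 0.051, Relb -0.073, Cblc 0.028, Lyz2 -0.18 and Cd4 -1.21. With the macrophage score, these were Apoa2 0.21, Apoc1 0.050, Apoc3 0.081, Apom 0.037, Zpr1 0.045, Pcsk7 0.053 and Cd4 -0.83. With the acute-phase score, these were Apoa2 0.087, Apoc3 0.0046 and Pcsk7 0.0069. With the length index and other-cell score, these were Apoa2 0.22, Apoc1 0.025, Apoc3 0.049, Apom 0.011, Mylip -0.062, Abcg1 -0.055, Lpl -0.21, Mttp 0.020, Apobec1 -0.21, Zpr1 0.028, Tagln -0.13, Pcsk7 0.098, Relb -0.14, Cblc 0.023, Lyz2 -0.30 and Cd4 -1.24. On the first cull day alone, these were Apoa2 0.17, Apoa4 0.13, Apoc1 0.038, Apoc3 0.054, Pcsk7 0.0027, Apoc4 0.016, Clptm1 0.021 and Sox9 -0.098. In the permutation test (mean log2 CPM difference), these were Apoa2 0.017, Cd4 -0.48 and Spp1 0.091. There with a prior count of 0.5, these were Apoa2 0.017, Cd4 -0.55 and Spp1 0.099. There with a prior count of 5, these were Apoa2 0.017, Cd4 -0.39 and Spp1 0.077. Without young mice 1184, 1186 and 1188, these were Apoa4 0.11, Apoa5 -0.045, Apoe -0.14, Apom 0.0085, Lipc -0.15, Bcl3 0.12, Saa1 3.07, Saa2 2.74, Cd4 -0.11 and Spp1 1.57. On the second cull day alone, these were Apoa5 -0.18, Apoe -0.18, Apom 0.12, Lrp1 0.019, Lipc -0.087, Bcl3 0.15, Saa1 3.34, Saa2 2.66, Cd4 -0.43 and Spp1 0.84. With DESeq2 size factors, it was Apoe -0.0077. With no filter, it was Apoe -0.031. In DESeq2, it was Apoe -0.0077. Without the cull day term, it was Apoe -0.012. With the length index, these were Apoe -0.044 and Lipc -0.00047. With each mouse left out, the ranges that crossed 0 were Apoa2 -0.072 to 0.089, Apoa4 -0.32 to 0.18, Apoc3 -0.069 to 0.023, Apoe -0.038 to 0.047, Apom -0.058 to 0.044, Lipc -0.014 to 0.11, Zpr1 -0.10 to 0.0046, Pcsk7 -0.041 to 0.022, Saa1 -1.51 to 0.43, Cd4 -0.79 to 0.24 and Spp1 -0.78 to 0.59. No apolipoprotein in these lists was called in the main comparison. The fits with the length index were added after seeing the data. A single simulated run held 12203 genes and the library sizes of the data, without a cull day effect. In it 98 genes had a log2 change of 0.5 and 99 one of 1. The test found 49.0% of the former and 88.9% of the latter. Of its calls 8.11% were false, a share above the adjusted p threshold of 0.05. In the data 30.9% of tested genes were called, so these shares need not hold there.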
